A study of Mus musculus with 10 samples.

Results

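The genes described here are 10 transcripts of the liver's collagen matrix and of the hepatic stellate cells that deposit much of it: the fibrillar collagen chains *Col1a1*, *Col1a2* and *Col3a1*, the basement membrane chains *Col4a1* and *Col4a2*, the microfibrillar chains *Col6a1* and *Col6a2*, the stellate cell markers *Lrat* and *Des*, and the proteoglycan gene *Dcn*. They were chosen by name, all 10 were found by Ensembl identifier in the count table of 12148 genes, and all 10 were among the 12147 genes tested. RNA came from whole livers of 10 wild-type germ-free C57BL/6 mice, which carry no gut microbiota of their own. Of these, 5 had received extracellular vesicles purified from gut contents and stool of control mice that carry a microbiota (microbiota-derived extracellular vesicles, MEV), in PBS by mouth at 80 μg per dose and 2 doses per week for 3 weeks (GF+MEV), and 5 had received PBS alone on the same schedule (GF+PBS). Both groups were germ-free, no transgene or deletion was used, and the age of the mice was not given in the sources used here. The question was whether oral MEV altered the level of these transcripts in the liver.

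Collagens are secreted as trimers of chains that wind around each other. Type I and type III collagen form the fibrils of the liver's interstitial matrix, type IV collagen forms the sheet-like network of basement membranes, and type VI collagen forms beaded microfibrils around cells. Hepatic stellate cells lie between hepatocytes and the sinusoidal endothelium, store vitamin A as retinyl esters, and on injury can become myofibroblasts that secrete large amounts of fibrillar collagen. In whole liver RNA these transcripts come from a minority of cells, so that fewer cells of a type and less RNA per cell cannot be told apart.

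Levels are given as CPM, counts scaled to library size with trimmed mean of M values (TMM) factors, with SD over livers and n = 5 per group. The libraries held 15746119 to 20523649 counts, and over these a member gene received between 33 counts (*Col6a2*, GF+MEV replicate 1) and 1990 counts (*Dcn*, GF+MEV replicate 3). The liver label was borne out by albumin (*Alb*) at 76247 ± 7005 CPM in GF+MEV and 78079 ± 4590 CPM in GF+PBS. GF+MEV replicate 2 stood apart from the other libraries through ribosomal RNA-like transcripts, with CT010467.1 at 78174 CPM against 1280 to 3118 CPM elsewhere, and values that moved without it are given below. Among GF+PBS livers, replicates 1 and 3 were the most alike, with a chi-square of 6.36 per gene between their counts, which is above counting error.

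The start sites of these genes differ in the short sequences before them. RefSeq promoter windows (GRCm38.p6, 250 bases before the start) were found for 8 of the 10 genes, and *Col1a1* and *Dcn* were not matched. Stretches before the start of 1 fibrillar collagen gene and both stellate cell markers are shown, with a shorter stretch of *Col1a2*, the partner chain of *Col1a1*. The windows of the type IV and type VI chains are not shown. Positions count from the RefSeq start, which for *Col1a2* (base 4505618) lies 804 bases inside the GENCODE gene given below, so that the stretch shown overlaps an annotated *Col1a2* exon. For *Lrat* and *Des* the RefSeq start lies 1 and 37 bases before the GENCODE start. Each runs 5′ to 3′ on the strand of the gene. Capitals mark the letters of a TATA box (TATAAA), those of a CCAAT box, and those of a GC box (GGGCGG), on either strand.

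Col1a2, chr6:4505498-4505527, plus strand, bases -120 to -91 from the start: aaagaatggaaCCAATttaagaagccccgt

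Col3a1, chr1:45311418-45311537, plus strand, bases -120 to -1: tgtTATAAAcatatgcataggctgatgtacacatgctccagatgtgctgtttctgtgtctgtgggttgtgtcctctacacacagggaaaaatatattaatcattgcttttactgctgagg

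Lrat, chr3:82903975-82904094, minus strand, bases -120 to -1: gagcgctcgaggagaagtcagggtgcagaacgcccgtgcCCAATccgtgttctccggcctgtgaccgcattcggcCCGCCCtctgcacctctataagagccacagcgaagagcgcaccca

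Des, chr1:75360172-75360291, plus strand, bases -120 to -1: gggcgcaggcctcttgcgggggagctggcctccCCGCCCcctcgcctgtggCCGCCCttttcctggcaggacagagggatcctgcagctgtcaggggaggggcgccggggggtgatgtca

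TATAAA occurred in 12.4% of 32851 windows and among the members in that of *Col3a1* alone, at -117 to -112. CCAAT occurred in 33.8% of windows and in those of 4 members, *Col1a2*, *Col4a1*, *Col4a2* and *Lrat*. GGGCGG occurred in 32.7% of windows and in those of 5 members, *Col1a2*, *Col4a2*, *Col6a2*, *Lrat* and *Des*. The fourth motif searched, CANNTG, occurred in 66.2% of windows and in those of *Col3a1*, *Col6a1*, *Lrat* and *Des*, and it is not capitalised above. All motifs were searched on both strands, and a CANNTG can overlap the other motifs. A match describes these letters and is not a measured binding site. *Col4a1* and *Col4a2* lie head to head on chromosome 8, and their annotated first exons share 22 bases, chr8:11312805-11312826 on the plus strand. These bases lie outside the windows and were not searched, so that the letters GGGCGG in them are not capitalised.

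Col4a1 and Col4a2 shared first-exon bases: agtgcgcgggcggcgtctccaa

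None of the 10 transcripts passed the test for a difference between GF+MEV and GF+PBS livers. The quasi-likelihood test of edgeR with Benjamini-Hochberg adjustment called 0 of 10 members, where it called 7.64% of all genes tested, 4.12% higher and 3.52% lower in GF+MEV. At an unadjusted p under 0.05 it gave 2 members, *Col6a1* and *Lrat*, or 20% of them beside 21.2% of all genes. No member had groups without overlap, which 7.39% of all genes had, 3.94% higher and 3.45% lower. DESeq2, limma-voom and every one of the other alternatives run, 23 in all, also called 0 members. The log2 fold change lay between -0.32 (*Lrat*) and 0.41 (*Col6a1*), was above 0 for 8 members, and had a median of 0.13 beside -0.0037 over all genes. The limma-voom 95% intervals of the 10 differences together reached from -0.64 to 0.89, so that changes beyond these bounds lay outside the interval of every member and smaller ones lay inside some of them.

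**Figure D1:**
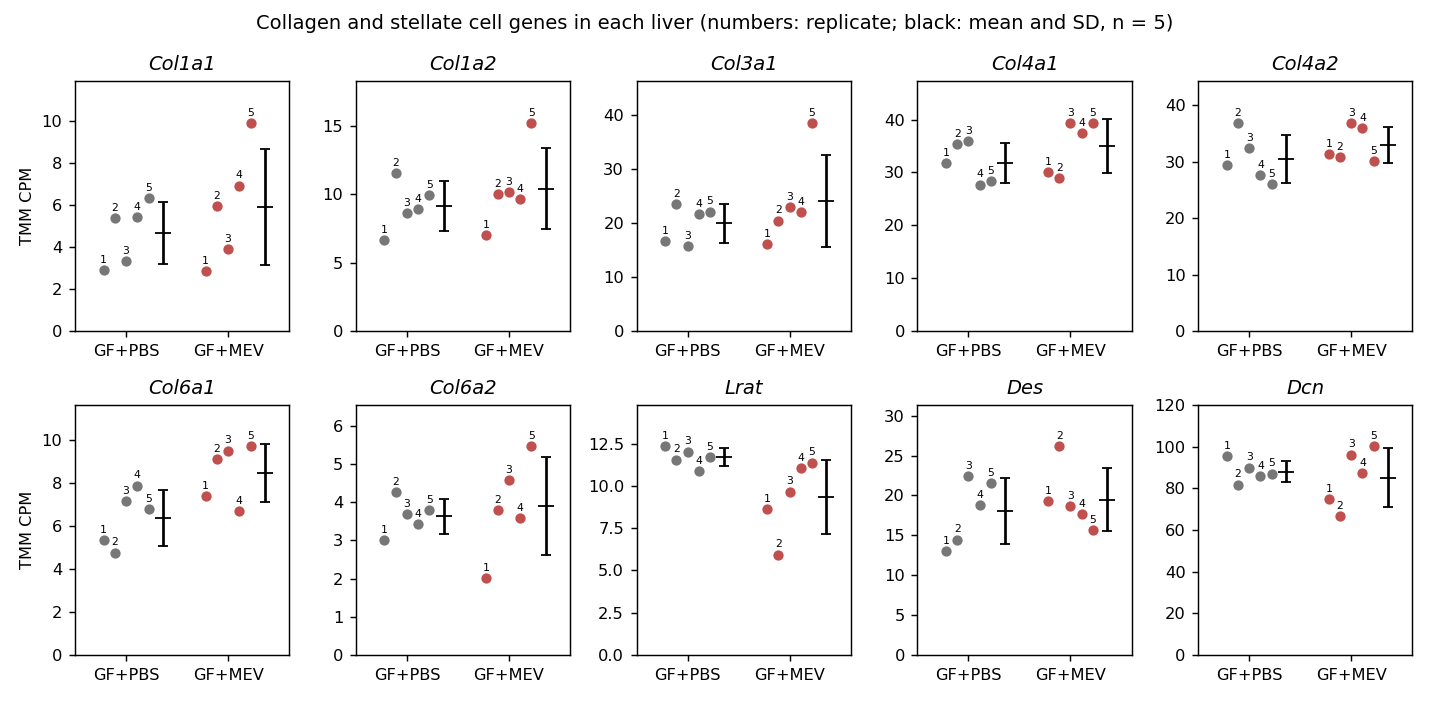
TMM CPM (vertical axes, from 0, one scale per gene) of the 10 genes in each GF+PBS liver (grey) and GF+MEV liver (red), with replicate numbers above the points and the mean and SD of 5 livers in black. The groups overlap for each gene, GF+MEV replicate 5 is the highest liver for *Col1a1*, *Col1a2*, *Col3a1*, *Col6a1*, *Col6a2* and *Dcn*, and *Lrat* is lowest in GF+MEV replicate 2.

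**Figure D2:**
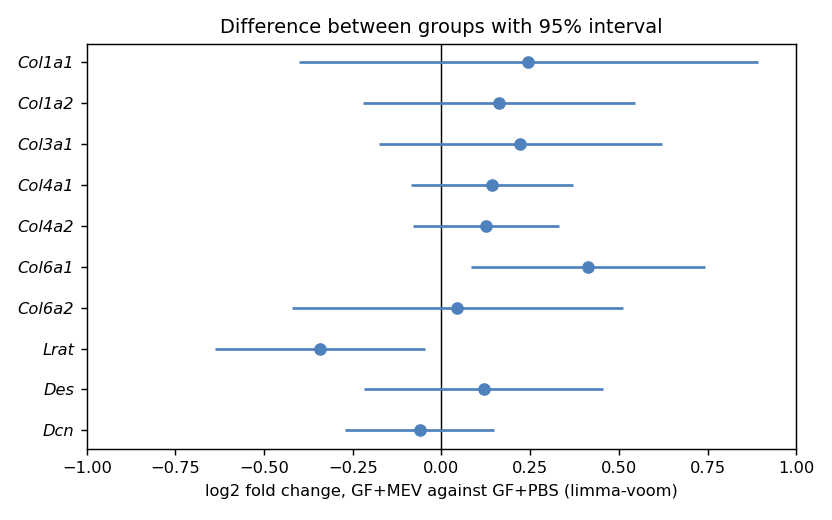
Log2 fold change of each gene in GF+MEV against GF+PBS (horizontal axis) by limma-voom, as a point with its 95% interval. The interval leaves out 0 for *Col6a1* (0.08 to 0.74) and *Lrat* (-0.64 to -0.05), neither of which passed the adjusted threshold, and is widest for *Col1a1* (-0.40 to 0.89).

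Among the fibrillar collagens, *Col1a1* (ENSMUSG00000001506, GRCm38 chr11:94936224-94953042) encodes the α1 chain of type I collagen. It stood at 2.87, 5.93, 3.91, 6.91 and 9.89 CPM in GF+MEV replicates 1 to 5 and at 2.89, 5.38, 3.33, 5.41 and 6.31 CPM in GF+PBS replicates 1 to 5. The lowest and the highest of the 10 livers were both GF+MEV livers, and replicates 1 and 3 of each group were the 4 lowest livers. The means of 5.90 ± 2.74 and 4.66 ± 1.47 CPM differed by 0.33 on the log2 scale (edgeR adjusted p = 0.577). The log2 difference was 0.91 with GF+PBS replicates 1 and 3 as the only controls and 0.04 with replicates 2, 4 and 5, so that the estimate depended on which control livers were used.

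The partner chain *Col1a2* (ENSMUSG00000029661, chr6:4504814-4541544) encodes the α2 chain of type I collagen. Its level was 7.01, 10.004, 10.2, 9.66 and 15.2 CPM in the GF+MEV livers and 6.66, 11.5, 8.63, 8.94 and 9.97 CPM in the GF+PBS livers. GF+MEV replicate 5 was above all others, and the other GF+MEV livers lay within the GF+PBS range. Means were 10.4 ± 2.98 and 9.15 ± 1.80 CPM, 0.19 apart on the log2 scale (edgeR adjusted p = 0.617).

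*Col3a1* (ENSMUSG00000026043, chr1:45311538-45349706) encodes the chain of type III collagen, which forms fine reticular fibres in the liver. GF+MEV livers held 16.1, 20.4, 22.98, 22.01 and 38.5 CPM, and GF+PBS livers 16.6, 23.5, 15.6, 21.6 and 22.1 CPM. The single high value was again that of GF+MEV replicate 5. The log2 fold change was 0.27 (edgeR adjusted p = 0.462), from means of 24.0 ± 8.51 and 19.9 ± 3.52 CPM. Without GF+MEV replicate 5 it was 0.04, and those of *Col1a1* and *Col1a2* were 0.07 and 0.01, so that 1 liver carried most of the estimate in each of the fibrillar chains.

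The fibrillar chains moved together from liver to liver. Over the 10 livers Pearson's r of log2 CPM was 0.858 between *Col1a1* and *Col1a2* (permutation p = 0.00125, adjusted over 6 pairs 0.00375) and 0.867 between *Col1a1* and *Col3a1* (permutation p = 0.00124, adjusted 0.00375). Spearman's rho was 0.648 for both pairs (permutation p = 0.0490 and 0.0481, adjusted 0.0980 for each). Leaving out GF+MEV replicates 1 and 5, the livers farthest from the median of *Col1a1*, gave r = 0.671 (permutation p = 0.0547) and 0.730 (permutation p = 0.0442), both with an adjusted p of 0.164, so that the significance of both relations rests on those livers. Within groups, as deviations from the group means, r was 0.848 and 0.858. The ratio of the chains did not separate the groups. The log2 ratio of *Col1a1* to *Col1a2* counts was -0.90 ± 0.40 in GF+MEV and -1.01 ± 0.31 in GF+PBS (exact two-sided permutation p = 0.683, adjusted over 4 ratios 0.889), and that of *Col1a1* to *Col3a1* was -2.09 ± 0.40 and -2.13 ± 0.26 (exact permutation p = 0.817, adjusted 0.889).

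**Figure D3:**
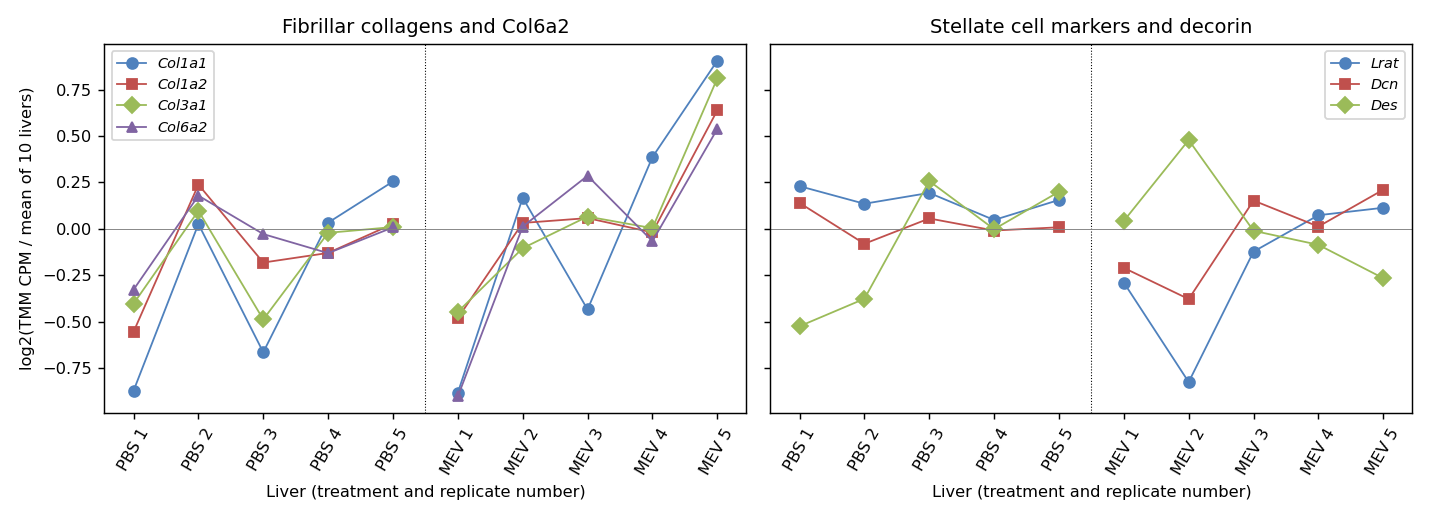
Log2 of TMM CPM over the mean of the 10 livers (vertical axes) in each GF+PBS and GF+MEV liver (horizontal axes), for the fibrillar collagens and *Col6a2* on the left and for *Lrat*, *Dcn* and *Des* on the right. The lines join livers of a group only to guide the eye. GF+MEV replicate 5 is high for all genes of the left panel, and in GF+MEV replicate 2 *Lrat* and *Dcn* are low while *Des* is high.

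The type IV chains are secreted together as the main collagen of basement membranes, and their genes share a promoter region. *Col4a1* (ENSMUSG00000031502, chr8:11198423-11312826) stood at 30.1, 29.0, 39.4, 37.4 and 39.3 CPM in GF+MEV livers and at 31.7, 35.3, 35.9, 27.7 and 28.3 CPM in GF+PBS livers. Of the GF+MEV livers, 3 were above all GF+PBS livers. The means of 35.03 ± 5.11 and 31.8 ± 3.80 CPM differed by 0.14 on the log2 scale (edgeR adjusted p = 0.481).

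*Col4a2* (ENSMUSG00000031503, chr8:11312805-11449287) stood at 31.4, 30.8, 36.9, 35.9 and 30.1 CPM in GF+MEV and at 29.4, 36.9, 32.4, 27.6 and 26.1 CPM in GF+PBS, with no GF+MEV liver above all GF+PBS livers. Its log2 fold change was 0.12 (edgeR adjusted p = 0.537), from 33.0 ± 3.15 and 30.5 ± 4.28 CPM. The limma-voom intervals of both chains were narrower than those of the other collagen members, -0.08 to 0.37 for *Col4a1* and -0.08 to 0.33 for *Col4a2*. Their log2 ratio was 0.08 ± 0.19 in GF+MEV and 0.06 ± 0.09 in GF+PBS (exact permutation p = 0.889). Over the 10 livers r was 0.723 (permutation p = 0.0225, adjusted 0.0450) and rho 0.661 (permutation p = 0.0435, adjusted 0.0980). Without GF+PBS replicates 4 and 5, the livers farthest from the median, r was 0.509 (permutation p = 0.198). The adjusted p also rose above the threshold, to between 0.0560 and 0.109, on leaving out any 1 of GF+MEV replicates 1 to 4 or GF+PBS replicates 1, 3, 4 and 5, so that the call depended on single livers. Reads over the 22 shared bases could be ambiguous between *Col4a1* and *Col4a2* if strand was not used. The sources used here do not state the strand setting or how such reads were counted.

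Type VI collagen links cells to the interstitial matrix, and its chains are made in fibroblast-like cells. *Col6a1* (ENSMUSG00000001119, chr10:76708792-76726168) had the highest fold change of the 10 genes. Its level was 7.38, 9.11, 9.51, 6.68 and 9.70 CPM in GF+MEV livers and 5.33, 4.76, 7.14, 7.88 and 6.79 CPM in GF+PBS livers. Of the GF+MEV livers, 3 exceeded all GF+PBS livers, and replicate 4 lay below 3 of them. The means of 8.48 ± 1.36 and 6.38 ± 1.30 CPM gave a log2 fold change of 0.41, which did not pass the adjusted threshold (edgeR unadjusted p = 0.0172, adjusted p = 0.125) and had an exact two-sided permutation p of 0.0556, where the smallest p that 5 livers against 5 allow is 0.00794.

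*Col6a2* (ENSMUSG00000020241, chr10:76595762-76623630) stood at 2.01, 3.79, 4.59, 3.59 and 5.46 CPM in GF+MEV and 2.998, 4.26, 3.69, 3.44 and 3.78 CPM in GF+PBS. Both its extremes were GF+MEV livers. Its log2 fold change was 0.10 (edgeR adjusted p = 0.840), from 3.89 ± 1.28 and 3.63 ± 0.463 CPM, and -0.04 without GF+MEV replicate 5. The log2 ratio of *Col6a1* to *Col6a2* was 1.18 ± 0.42 in GF+MEV and 0.79 ± 0.38 in GF+PBS (exact permutation p = 0.183, adjusted 0.730). The 2 chains were not detectably related over livers (r = 0.310, permutation p = 0.387, adjusted 0.465; rho = 0.418, permutation p = 0.231, adjusted 0.315). *Col6a2* instead lay closest to the fibrillar chains, with r = 0.88 to *Col1a2* and 0.78 to *Col3a1*, given as a description over 10 livers without a test.

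*Lrat* (ENSMUSG00000028003, chr3:82892579-82903973) encodes lecithin retinol acyltransferase, which makes the retinyl esters that stellate cells store. It was the only member besides *Dcn* with a fold change below 0. GF+MEV livers held 8.60, 5.93, 9.66, 11.1 and 11.4 CPM and GF+PBS livers 12.3, 11.5, 12.02, 10.9 and 11.7 CPM. In 3 GF+MEV livers *Lrat* was below all GF+PBS livers, and replicates 4 and 5 lay within the GF+PBS range. The GF+MEV livers spread over 1.92-fold and the GF+PBS livers over 1.13-fold. The means of 9.32 ± 2.20 and 11.7 ± 0.552 CPM differed by a log2 fold change of -0.32, which did not pass the adjusted threshold (edgeR unadjusted p = 0.0362, adjusted p = 0.195). The exact two-sided permutation p, not adjusted for the 10 genes compared this way, was 0.0317. Without GF+MEV replicate 2, the library rich in ribosomal RNA-like transcripts and the lowest in *Lrat*, the log2 fold change was -0.20 (adjusted p = 0.290), and over all alternatives it ranged from -0.40 to -0.20 with adjusted p from 0.126 to 0.489.

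*Des* (ENSMUSG00000026208, chr1:75360329-75368579) encodes desmin, an intermediate filament of rodent stellate cells and of muscle. Its level was 19.3, 26.1, 18.6, 17.7 and 15.6 CPM in GF+MEV livers and 13.0, 14.5, 22.4, 18.7 and 21.6 CPM in GF+PBS livers, with GF+MEV replicate 2 highest and GF+PBS replicate 1 lowest. The means of 19.5 ± 3.98 and 18.0 ± 4.18 CPM gave 0.11 on the log2 scale (edgeR adjusted p = 0.758) and, without GF+MEV replicate 2, -0.01. The *Des* level followed that of skeletal muscle transcripts within each group. The summed level of 7 skeletal muscle genes was 249, 301, 830, 597 and 804 CPM in GF+PBS replicates 1 to 5, the same order of livers as for *Des*. In GF+MEV replicates 1 to 5 it was 380, 407, 332, 334 and 296 CPM, the same order except that replicates 3 and 4 changed places. Across the groups the orders differed. GF+MEV replicate 2, highest in *Des*, held 407 CPM of muscle transcripts, less than GF+PBS replicates 3, 4 and 5. The part of these muscle transcripts in the *Des* level was not tested.

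**Figure D4:**
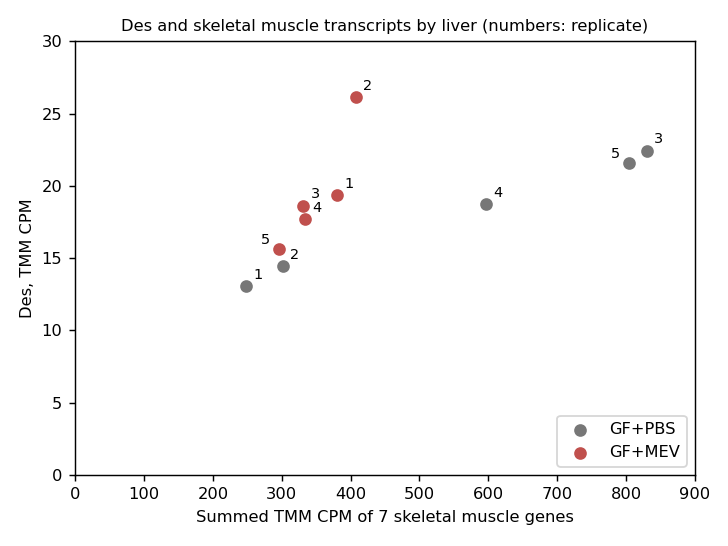
*Des* level in TMM CPM (vertical axis) against the summed TMM CPM of 7 skeletal muscle genes (horizontal axis) in each liver, with GF+PBS in grey, GF+MEV in red and replicate numbers beside the points. GF+PBS replicates 3, 4 and 5 lie at 597 to 830 CPM of muscle transcripts, above the 249 to 407 CPM of all other livers.

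*Dcn* (ENSMUSG00000019929, chr10:97479609-97518143) encodes decorin, a small proteoglycan that binds collagen fibrils and TGF-beta. Its level was 74.7, 66.5, 96.1, 87.2 and 100.04 CPM in GF+MEV and 95.2, 81.8, 89.9, 85.9 and 87.0 CPM in GF+PBS. Both the lowest and the highest livers were GF+MEV livers. The means of 84.9 ± 14.2 and 87.9 ± 5.003 CPM gave a log2 difference of -0.05 (edgeR adjusted p = 0.830, limma-voom interval -0.27 to 0.15), which was 0.03 without GF+MEV replicate 2.

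The stellate cell markers did not vary as one unit. *Lrat* and *Des* had r = -0.621 over the 10 livers (permutation p = 0.0556, adjusted 0.0835; rho = -0.394, permutation p = 0.262, adjusted 0.315), which was -0.202 without GF+MEV replicates 1 and 2. *Lrat* and *Dcn* had r = 0.80, a description without a test. Both were lowest in GF+MEV replicate 2 (5.93 and 66.5 CPM) and next lowest in GF+MEV replicate 1 (8.60 and 74.7 CPM). How far this r rests on those livers was not tested. *Dcn* and *Col1a2* were not detectably related (r = 0.229, permutation p = 0.519, adjusted 0.519; rho = 0.152, permutation p = 0.681, adjusted 0.681). All members varied more between livers of a group than the median gene, with a pooled SD of log2 CPM from 0.167 (*Col4a2*) to 0.547 (*Col1a1*) beside 0.158 over all genes. The part of their low counts in this spread was not tested.

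Per kilobase of annotated exon (TMM RPKM, over the union of exons), *Dcn* was the highest of the 10 transcripts, at 14.5 ± 2.42 in GF+MEV and 15.1 ± 0.857 in GF+PBS, and its range did not overlap that of the next gene. *Des* at 5.19 ± 1.06 and 4.81 ± 1.11, *Col4a2* at 4.99 ± 0.476 and 4.61 ± 0.647, and *Col4a1* at 4.69 ± 0.684 and 4.26 ± 0.509 followed, and their ranges overlapped. *Col3a1* (2.44 ± 0.867 and 2.03 ± 0.359), *Lrat* (1.74 ± 0.411 and 2.19 ± 0.103) and *Col6a1* (1.94 ± 0.310 and 1.46 ± 0.296) formed the middle of the order, again with overlap between neighbours. *Col1a1* at 0.899 ± 0.418 and 0.7104 ± 0.225, *Col1a2* at 0.838 ± 0.240 and 0.736 ± 0.145, and *Col6a2* at 0.467 ± 0.154 and 0.436 ± 0.0557 were lowest, with overlap between neighbours. On the length of the principal transcript, *Dcn* was still first, at 48.3 ± 8.05 and 50.0 ± 2.85 RPKM, *Col1a2* was above *Col1a1* in both groups (1.95 ± 0.557 and 1.71 ± 0.336 against 0.995 ± 0.463 and 0.786 ± 0.249 RPKM), and *Col4a1* and *Col4a2* changed places. *Col1a2* also passed *Lrat* in GF+MEV and *Col6a1* in GF+PBS. In GF+PBS *Col3a1* passed *Lrat*, and *Col6a2*, at 0.920 ± 0.117 RPKM, passed *Col1a1*, so that the middle and the lowest places depended on the length used.

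Beyond the member genes, 9 lists of other matrix, stellate cell and TGF-beta or PDGF genes held 124 tested genes, of which 5 passed the test, or 4.03% beside the 7.64% of all genes. That difference was not tested. Of the other collagen chains, 14 of 26 were tested, 1 rose and 0 fell, with a median log2 fold change of 0.17. The one that rose was *Col5a3*, a minor chain of type V collagen, at 56.4 ± 6.64 against 43.6 ± 5.90 CPM (log2 fold change 0.37, edgeR adjusted p = 0.0335), and this call was lost without GF+MEV replicate 2, 4 or 5 or GF+PBS replicate 2, 4 or 5, and with upper-quartile or library size scaling, the replicate block, alike GF+PBS livers summed and GF+PBS replicates 1 and 3 as controls. The most abundant chain, *Col18a1*, whose fragment is endostatin, stood at 1170 ± 47.8 and 1076 ± 36.1 CPM without overlap between groups (log2 fold change 0.12, edgeR adjusted p = 0.208), and *Col14a1* at 42.3 ± 11.05 and 38.9 ± 1.89 CPM, neither passing the test. The tested chains of the list summed to 1275 to 1403 CPM in GF+MEV and 1187 to 1264 CPM in GF+PBS, also without overlap, and 12 of the 14 had a fold change above 0. *Col18a1* makes up most of that sum. Its nearest livers stood at 1122 CPM (GF+MEV replicate 1) and 1120 CPM (GF+PBS replicate 2). Overlap of the gene and of the sum was read with TMM scaling alone. Among enzymes and chaperones of collagen synthesis, folding and crosslinking, 22 of 29 were tested and 0 passed in either direction (median 0.04). *P4hb*, the shared subunit of prolyl 4-hydroxylase, stood at 1590 ± 77.1 and 1605 ± 61.0 CPM, and *Mia2*, which acts in the export of large secreted cargo, at 306 ± 14.1 and 288 ± 29.2 CPM.

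Genes that degrade, organise or bind collagen gave the same count. Of matrix proteases and their inhibitors 9 of 18 were tested with 0 calls (median 0.09), and the membrane-type protease *Mmp15* stood at 50.7 ± 3.81 and 52.8 ± 5.36 CPM. *Mmp19* was at 38.8 ± 2.31 and 40.5 ± 1.91 CPM. Of small leucine-rich proteoglycans 7 of 10 were tested with 0 calls (median 0.04), and biglycan (*Bgn*) stood at 64.2 ± 10.2 and 62.5 ± 3.13 CPM and *Prelp* at 26.1 ± 3.71 and 28.3 ± 1.73 CPM. Basement membrane partners of type IV collagen were tested for 15 of 16 with 0 calls (median 0.15), among them agrin (*Agrn*) at 58.2 ± 5.74 and 50.6 ± 5.09 CPM and *Sparc* at 54.1 ± 7.88 and 51.8 ± 2.52 CPM. Of collagen receptors 5 of 10 were tested with 0 calls (median 0.04), and the integrin chains *Itgb1* and *Itga1* stood at 151 ± 15.7 against 139 ± 6.996 CPM and at 21.3 ± 2.21 against 20.7 ± 2.30 CPM.

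Of 20 genes listed for quiescent stellate cells 18 were tested, 0 rose and 1 fell, with a median log2 fold change of -0.11, and 7 were above 0. The gene that fell was *Pth1r*, the receptor of parathyroid hormone, from 16.4 ± 1.31 to 12.1 ± 1.64 CPM without overlap (log2 fold change -0.43, edgeR adjusted p = 0.0163). The call was lost against GF+PBS replicates 2, 4 and 5 and with alike GF+PBS livers summed. The most abundant of the list, *Ecm1* and *Reln*, stood at 127 ± 16.7 and 126 ± 6.14 CPM and at 44.8 ± 11.4 and 39.8 ± 4.03 CPM. Of 20 genes listed for activated stellate cells and myofibroblasts 14 were tested, 1 rose and 0 fell (median 0.03). That gene was *S100a6*, a calcium-binding protein made in several cell types, at 3.92 ± 1.56 against 1.10 ± 0.341 CPM without overlap (log2 fold change 1.83, edgeR adjusted p = 0.0015). *Lgals1*, which encodes galectin-1, lay just outside the threshold at 13.9 ± 1.78 against 17.5 ± 1.70 CPM (log2 fold change -0.34, edgeR adjusted p = 0.0525). It was called lower by DESeq2, by limma-voom, with upper-quartile or library size scaling, with the replicate block, against GF+PBS replicates 1 and 3, and without GF+MEV replicate 1 or 2 or GF+PBS replicate 5. *Tpm2* was called lower without GF+PBS replicate 2 (log2 fold change -0.79), as were the skeletal muscle genes *Myh4* (-1.05) and *Tnni2* (-1.28). Over the GF+PBS livers *Tpm2* spanned 18.5 to 51.9 CPM. The part of muscle transcripts in the levels of *Tpm1* and *Tpm2* was not tested. Fibronectin (*Fn1*), which hepatocytes also make, stood at 1544 ± 148 and 1409 ± 211 CPM and *Tpm1* at 112 ± 12.8 and 143 ± 43.1 CPM. Smooth muscle actin (*Acta2*), the usual marker of myofibroblasts, was at 2.07 ± 0.414 CPM in GF+MEV and 2.50 ± 0.908 CPM in GF+PBS, with 23 to 61 counts per library (log2 fold change -0.28, edgeR adjusted p = 0.571).

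In the TGF-beta and PDGF signalling list, 20 of 25 genes were tested, 2 rose and 0 fell, with a median log2 fold change of 0.07. *Skil*, which encodes a co-repressor of SMAD proteins that TGF-beta induces, stood at 10.5 ± 1.14 CPM in GF+MEV and 6.17 ± 0.652 CPM in GF+PBS (log2 fold change 0.77, edgeR adjusted p = 0.0004). *Ccn2*, which encodes connective tissue growth factor, stood at 4.82 ± 0.875 and 1.57 ± 0.587 CPM (log2 fold change 1.603, edgeR adjusted p = 0.0004). Neither overlapped between groups. Of the 20, 13 had a fold change above 0. Among those not called, *Smad3* was at 13.5 ± 1.29 against 16.3 ± 1.33 CPM (log2 fold change -0.26, edgeR adjusted p = 0.0872). *Pdgfa* was at 4.84 ± 1.09 against 6.38 ± 0.65 CPM (-0.40, edgeR adjusted p = 0.120). *Smad3* was called lower with upper-quartile or library size scaling and without GF+MEV replicate 1. *Pdgfa* was called lower with library size scaling and without GF+MEV replicate 2. The most abundant of the list, *Ltbp4* and *Smurf2*, stood at 52.2 ± 12.2 and 51.0 ± 3.59 CPM and at 45.8 ± 5.86 and 42.1 ± 3.68 CPM.

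**Figure D5:**
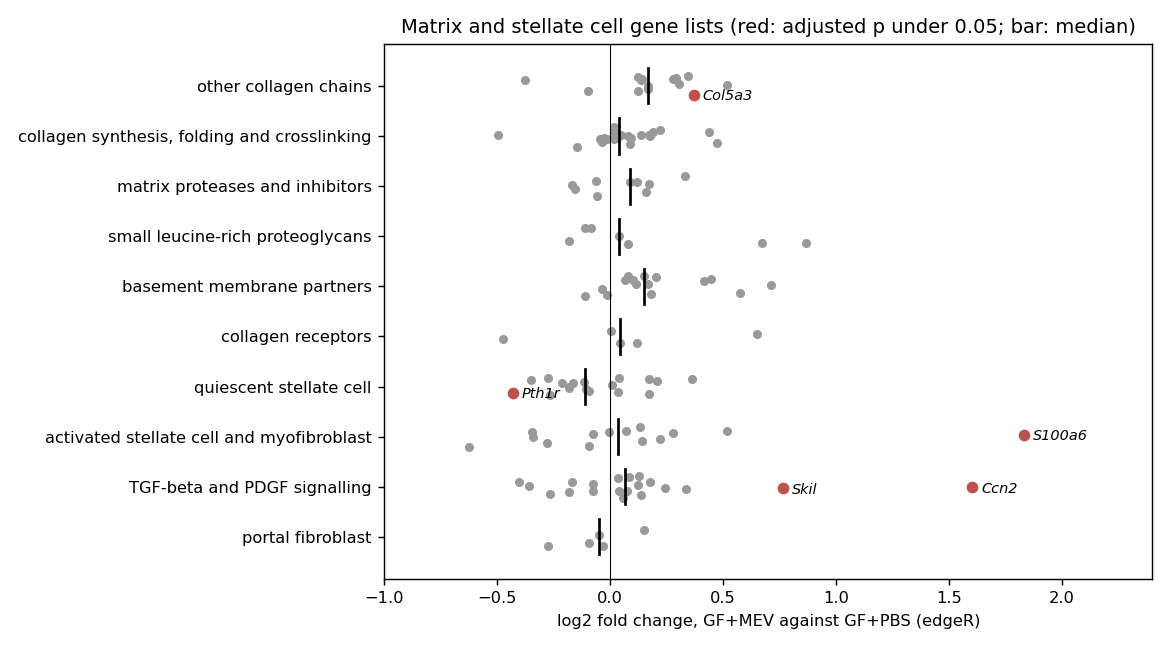
Log2 fold change by edgeR (horizontal axis) of every tested gene of 10 matrix and stellate cell lists (vertical axis), in red where the adjusted p was under 0.05 and with the median of each list as a bar. *Ccn2*, *S100a6*, *Skil* and *Col5a3* lie to the right and *Pth1r* to the left, while the medians of the lists lie between -0.11 and 0.17.

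The genes whose level followed the fibrillar collagens most closely over the 10 livers were named by Pearson's r with the mean log2 CPM of *Col1a1*, *Col1a2* and *Col3a1*. Among 11824 genes whose mean reached 1 CPM, the 10 highest were *Shank2* (0.94), *Lims1* (0.92), *Glis2* (0.91), *Ints9* (0.90), *Fmo2* (0.90), *Igfbp3* (0.90), *Cnot4* (0.90), *Man1a* (0.88), *Col4a5* (0.88) and *Sparc* (0.87). *Col4a5* is a further type IV chain and *Sparc* a collagen-binding glycoprotein. None of the 10 passed the test between groups. These r values describe 10 points, 1 of which, GF+MEV replicate 5, lies far above the rest for the fibrillar chains.

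Lists of other cell types that a piece of liver can hold were read from the same fit. Portal fibroblast genes (5 of 10 tested, 0 calls, median -0.05) summed to 18.1 to 34.8 CPM in GF+MEV and 20.5 to 38.7 CPM in GF+PBS, led by *Gsn* at 19.95 ± 4.91 and 20.7 ± 6.33 CPM and *Fbln2* at 2.50 ± 1.13 and 2.99 ± 0.925 CPM. Vascular smooth muscle genes (4 of 7 tested, 0 calls, median -0.12) summed to 75.4 to 96.3 and 55.2 to 91.3 CPM, led by *Mylk* at 77.3 ± 7.97 and 64.4 ± 13.3 CPM and *Smtn* at 6.05 ± 1.12 and 5.87 ± 0.726 CPM. Skeletal muscle genes (7 of 12 tested, 0 calls, median -0.58) summed to 296 to 407 and 249 to 830 CPM, led by *Myh4* at 113 ± 9.86 and 208 ± 105 CPM and *Acta1* at 91.8 ± 15.9 and 137 ± 67.7 CPM.

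Of the mesothelial genes, *Krt19* differed between groups and the other genes tested did not pass. Of 6 listed 3 were tested, 1 rose and 0 fell, and the 3 summed to 6.83 to 19.0 CPM in GF+MEV and 0.833 to 3.78 CPM in GF+PBS, without overlap (median log2 fold change 1.71), but without *Krt19* they summed to 1.16 to 8.21 and 0.333 to 3.002 CPM, which overlap. The gene that rose was *Krt19*, a keratin of mesothelium and bile ducts, at 8.20 ± 5.80 against 0.560 ± 0.190 CPM (log2 fold change 3.87, edgeR adjusted p = 0.0006). It had only 6 to 13 counts in each GF+PBS library and 15 in GF+MEV replicate 5, so that the size of this fold change rests on few counts. Mesothelin (*Msln*) did not pass the test, at 2.21 ± 1.07 and 0.670 ± 0.548 CPM (edgeR adjusted p = 0.0631), nor did *Upk3b*, at 2.173 ± 1.96 and 1.12 ± 0.742 CPM. GF+MEV replicate 5, the liver highest in fibrillar collagens, was the lowest GF+MEV liver in *Krt19* (0.964 CPM against 5.67 to 16.8) and lay below only GF+MEV replicate 3 among all livers in *Msln* (2.89 CPM) and *Upk3b* (3.86 CPM). The part of mesothelial cells in the collagen levels was not tested.

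The remaining lists described the main cells of the liver. Sinusoidal endothelial genes (10 of 10 tested, 1 rose, 1 fell, median -0.21) summed to 186 to 295 CPM in GF+MEV and 223 to 297 CPM in GF+PBS. *Clec4g*, a lectin of these cells, fell from 35.95 ± 5.62 to 25.7 ± 3.85 CPM (log2 fold change -0.48, edgeR adjusted p = 0.0214), and *Lyve1*, a hyaluronan receptor, rose from 2.69 ± 0.778 to 4.80 ± 1.46 CPM (0.84, adjusted p = 0.0401). The *Clec4g* call was lost with alike GF+PBS livers summed and against GF+PBS replicates 2, 4 and 5, and the *Lyve1* call with library size scaling, the replicate block, alike livers summed and against GF+PBS replicates 1 and 3. No gene of the list was called lower without GF+MEV replicate 2 or 5 or GF+PBS replicate 3, and none higher without GF+MEV replicate 3 or 5 or GF+PBS replicate 3, 4 or 5. *Stab1* stood at 44.7 ± 9.06 and 43.5 ± 4.01 CPM. Kupffer cell genes (8 of 8 tested, 0 calls, median -0.15) summed to 229 to 439 and 262 to 382 CPM, led by *Cd5l* at 88.5 ± 35.9 and 108 ± 22.3 CPM and *Clec4f* at 80.7 ± 13.0 and 89.8 ± 8.67 CPM.

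Of cholangiocyte genes 3 of 7 were tested and 2 rose (median 0.36), *Krt19* and *Sorbs2*, the latter an adaptor protein also made outside bile ducts, at 61.4 ± 5.91 against 47.8 ± 6.26 CPM (log2 fold change 0.36, edgeR adjusted p = 0.0271). The *Sorbs2* call was lost without GF+MEV replicate 2, 3 or 4 or GF+PBS replicate 2, 4 or 5, with upper-quartile or library size scaling, with alike GF+PBS livers summed and against GF+PBS replicates 1 and 3. *Sox9* stood at 0.961 ± 0.440 and 1.88 ± 0.784 CPM and did not pass the test. Of hepatocyte genes 8 of 8 were tested, 3 rose and 0 fell (median 0.08). They were tyrosine aminotransferase (*Tat*, log2 fold change 2.10), *Hnf4a* (0.45) and the urea cycle gene *Cps1* (0.38), with edgeR adjusted p of 7.6e-08, 0.00036 and 0.0414. The *Cps1* call was lost with upper-quartile or library size scaling and with the replicate block. It was also lost with alike GF+PBS livers summed and against GF+PBS replicates 2, 4 and 5. On leaving out 1 liver it was kept only without GF+MEV replicate 2 or GF+PBS replicate 5.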

How the data were processed

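Liver RNA of 5 GF+MEV and 5 GF+PBS mice was sequenced from NEBNext Ultra libraries. Per the study's methods and the submitters' processing notes, reads were demultiplexed with bcl2fastq 2.17, aligned to GRCm38 with STAR 2.7.3a and counted per gene with HTSeq, and genes under 20 counts were removed. The authors deposited raw counts per Ensembl gene. The HTSeq version, annotation release and strand setting were not given in the sources used here. In the table, 5 columns matched no described sample and were not used.

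Symbols and positions came from GENCODE M21, in which 10 identifiers had no symbol. The 12147 genes with at least 20 summed counts were tested with edgeR 4.0.16 (R 4.3.3; TMM, quasi-likelihood, treatment alone, Benjamini-Hochberg over all genes, threshold 0.05). Intervals came from limma 3.58.1 (voom). Single values and ratios (pseudocount 0.5 counts) were compared by exact permutation over 252 labelings, and correlations of log2(CPM + 0.5) by 100000 resamples. Nothing in the labels says whether mice were housed or treated separately, so p-values measure the spread between these livers. The edgeR, DESeq2 and limma-voom fits were run on simulated counts, and the other alternatives were not. Named genes were the members, the genes called in each list (up to 4) or otherwise the 2 most abundant, and the 10 genes most like the fibrillar chains. *Acta2*, *Lgals1*, *Tpm2*, *Msln*, *Stab1*, *Alb*, *Upk3b*, *Sox9* and the abundant genes of lists with a call were picked with their values in view. So were *Smad3* and *Pdgfa*. The members and lists were chosen with earlier results of these data known. Alternatives were DESeq2 1.42.0, limma-voom, other scalings and filters, a replicate block, subsets of GF+PBS livers and leaving out each liver.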

Additional observations from a re-analysis of the deposited data

How the results depend on the processing

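The count of 0 members called in either direction was the same in all 23 alternatives. The member estimates changed sign only where they lay near 0: *Dcn* was 0.0017 against GF+PBS replicates 2, 4 and 5, and *Col4a2* was -0.0032 against GF+PBS replicates 1 and 2, a comparison added after the data were seen, whose controls are the lowest livers in *Des* itself. Leaving out each liver in turn, *Col6a2* ranged from -0.044 to 0.26, *Des* from -0.013 to 0.20 and *Dcn* from -0.11 to 0.028. The log2 ratio difference of *Col1a1* to *Col3a1* ranged from -0.059 to 0.16 and that of *Col4a1* to *Col4a2* from -0.062 to 0.057, r of *Col4a1* and *Col4a2* from 0.652 to 0.882, r of *Col1a2* and *Dcn* from -0.121 to 0.476, and r of *Lrat* and *Des* from -0.768 (past the threshold, without GF+PBS replicate 3) to -0.268. Without the 2 farthest livers r was 0.671 (*Col1a1*, *Col1a2*), 0.730 (*Col1a1*, *Col3a1*) and 0.509 (*Col4a1*, *Col4a2*), and as deviations from group means that of the type IV pair was 0.680 (adjusted p = 0.0570). The causes were not tested.

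Replicate numbers did not pair the livers: same-numbered livers had correlations of deviations from -0.22 to 0.19, and only number 1 matched best with its own number. The fit with the replicate block called 450 genes higher and 342 lower, 0 members, 0 other collagen chains, 1 activated stellate cell gene lower and 0 sinusoidal endothelial genes higher. It changed no other list's count by more than 1.5 times. Over all genes the main fit called 500 higher and 428 lower, upper-quartile scaling 428 and 612, library size alone 332 and 691, and summing alike GF+PBS livers 209 lower.

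Counts per list moved as follows. Other collagen chains called higher fell to 0 with upper-quartile factors, library size, alike livers summed and GF+PBS replicates 1 and 3, and 1 was called lower against replicates 2, 4 and 5. With DESeq2, 1 proteoglycan and 1 basement membrane gene were higher, 1 activated stellate cell gene lower and 2 sinusoidal genes lower. Limma-voom called 1 activated stellate cell gene lower. With upper-quartile factors 1 activated stellate cell gene, 1 TGF-beta or PDGF gene, 1 skeletal muscle gene and 2 sinusoidal genes were lower and 1 cholangiocyte gene higher. Library size alone gave 1 activated stellate cell gene, 2 TGF-beta or PDGF genes, 1 muscle gene and 1 hepatocyte gene lower, 0 sinusoidal genes higher and 1 cholangiocyte gene higher. At least 10 counts in every library, a filter that took *Krt19* out of the test, left 0 mesothelial genes and 1 cholangiocyte gene higher. Alike livers summed gave 0 quiescent stellate cell genes lower, 1 muscle gene lower, 0 sinusoidal genes in either direction and 1 cholangiocyte gene higher. Against GF+PBS replicates 1 and 3, 2 quiescent, 1 activated and 3 sinusoidal genes were lower, 1 basement membrane, 1 vascular smooth muscle, 2 mesothelial, 0 sinusoidal and 1 cholangiocyte gene higher, and 1 cholangiocyte gene lower. Against replicates 2, 4 and 5, 1 proteoglycan gene was higher, 2 muscle genes lower, and 0 quiescent and 0 sinusoidal genes lower. Leaving out 1 liver gave 0 to 1 other collagen chain higher, 0 to 1 sinusoidal gene higher and 0 to 2 lower, and 1 to 2 cholangiocyte genes higher. It also gave 1 proteoglycan gene higher (without GF+PBS replicate 1), 1 basement membrane gene higher (GF+PBS 2), 1 activated stellate cell gene lower (GF+MEV 1 or 2, GF+PBS 2 or 5), 1 TGF-beta or PDGF gene lower (GF+MEV 1 or 2), 2 mesothelial genes higher (GF+MEV 1), 3 and 2 muscle genes lower (GF+PBS 1 and 2) and 3 Kupffer cell genes lower (GF+MEV 4), where the other livers left these counts at 0, or at 1 for mesothelium. Depth limits *Col6a2* and *Col1a1* most, with as few as 33 and 47 counts in a library.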
